A study of Mus musculus with 3 samples.

Results

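The microtubule motors and nuclear anchors of cells sorted as mouse cone photoreceptors were described from 68 of the 31053 genes in the deposited table. They were chosen by symbol and not by any measured value: 37 kinesin heavy chain genes (Kif genes, without Kif23), 4 kinesin light chain genes, 16 cytoplasmic dynein genes, 6 dynactin genes and the 5 genes Sun1, Sun2, Syne1, Syne2 and Syne3. Kinesins and cytoplasmic dynein walk along microtubules, mostly toward opposite ends, and carry organelles, vesicles and protein complexes; dynactin is the cofactor that couples dynein to its cargo. SUN proteins of the inner nuclear membrane and nesprins (Syne genes) of the outer membrane together form the LINC complex, a bridge through the nuclear envelope to which motors can attach and by which nuclei are moved. In the developing retina, cone nuclei travel within the tissue before they settle in their final layer.

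The study compared GFP-positive cones of 3 mouse lines, all labelled postnatal day 12 and each sorted as single cells into its own plate of 96 wells: wildtype, named for the Chrnb4-GFP reporter, Cnga3-/-, which lacks a subunit of the cone cyclic nucleotide-gated channel, and Pde6ccpfl1, which carries a mutant allele of the cone phosphodiesterase gene. The mutant library names carry GFP without naming the reporter's promoter, and the number of animals was not given in the sources used here. With 1 library per genotype, genotype cannot be told apart from plate, no test between genotypes was possible, and each interval given is an exact 95% interval that covers counting error only. The column names also carried the tags P11 for wildtype, P08 for Cnga3-/- and P10 for Pde6ccpfl1, whose meaning was not stated.

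Wells with at least 500 counted genes and at most 30% mitochondrially encoded counts were kept, which left 52 of 61 wildtype, 70 of 76 Cnga3-/- and 61 of 71 Pde6ccpfl1 wells. They held 273080, 335499 and 295011 counts in that order of genotypes, and from 1061 to 16935 counts per well. The 12 cone markers held 51, 254 and 225 counts in the same order, or 4.74 (3.53 to 6.23), 19.2 and 19.3 CPM (counts per 1000000 counts of the library) per kilobase of exon, and 5 of them, the cone opsin gene Opn1sw among them, were at 0 in the wildtype library. In wildtype that interval holds 4.48, the level of the olfactory receptor genes, which are not expected in a cone. The 12 markers were Opn1sw, Opn1mw, Arr3, Gnat2, Gngt2, Gnb3, Pde6h, Pde6c, Cnga3, Cngb3, Guca1a and Kcnv2, so they include both mutated genes. Cnga3 itself had 22, 13 and 3 of the marker counts and Pde6c 0, 5 and 2, so neither gene separated the libraries by label. The part of each gene that the alleles alter was not given in the sources used here. Rod markers were at 6.74, 14.3 and 12.0 CPM per kilobase. Müller glia markers were at 5.66, 2.81 and 1.79, on 41, 25 and 14 counts. Their ratio to wildtype was 0.496 (0.289 to 0.836) for Cnga3-/- and 0.316 (0.159 to 0.592) for Pde6ccpfl1. Over the positions kept in all 3 plates it was 0.744 (0.396 to 1.38), an interval that holds 1, and 0.393 (0.170 to 0.837). Markers of 6 other cell types and the cell cycle were between 1.59 and 12.6 in every library. Horizontal cell markers were the highest of these, at 12.6, 9.47 and 10.7, and endothelium markers were at 8.07, 5.57 and 6.01. Both values stood above that of the cone markers in wildtype. The part that these marker differences play in the motor results was not tested.

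Wells at the same plate position resembled each other across plates, which bears on every value below. Over 5968 genes outside the motor list, the best match of each shared position in the other plate was the same position in 50 of 50 cases for wildtype and Cnga3-/-, in 43 of 43 for wildtype and Pde6ccpfl1 and in 61 of 61 for the mutants. The correlation at the same position ranged from 0.156 to 0.549, and that between different positions did not exceed 0.0672. The motor genes showed it as well. Of members with at least 5 counts in a well of both plates, 6 of 6, 6 of 6 and 10 of 10 had their highest well at the same position in the 3 pairs of plates, beside 90.3%, 90.1% and 90.1% of other genes. Those other genes also needed a total of at least 50 counts and no more than that of Klc1, a limit not set for the members. The 3 libraries thus cannot be read as independent well by well. Whether counts of one plate stem from cells of another was not tested; if some do, the ratios below do not compare separate cells, and the counting intervals do not cover it. Only 2 wildtype and 2 Cnga3-/- wells lay at a position kept in no other plate, so results could not be given without the matched wells; the main ratios are instead repeated over the 43 positions kept in all 3 plates.

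**Figure D1:**
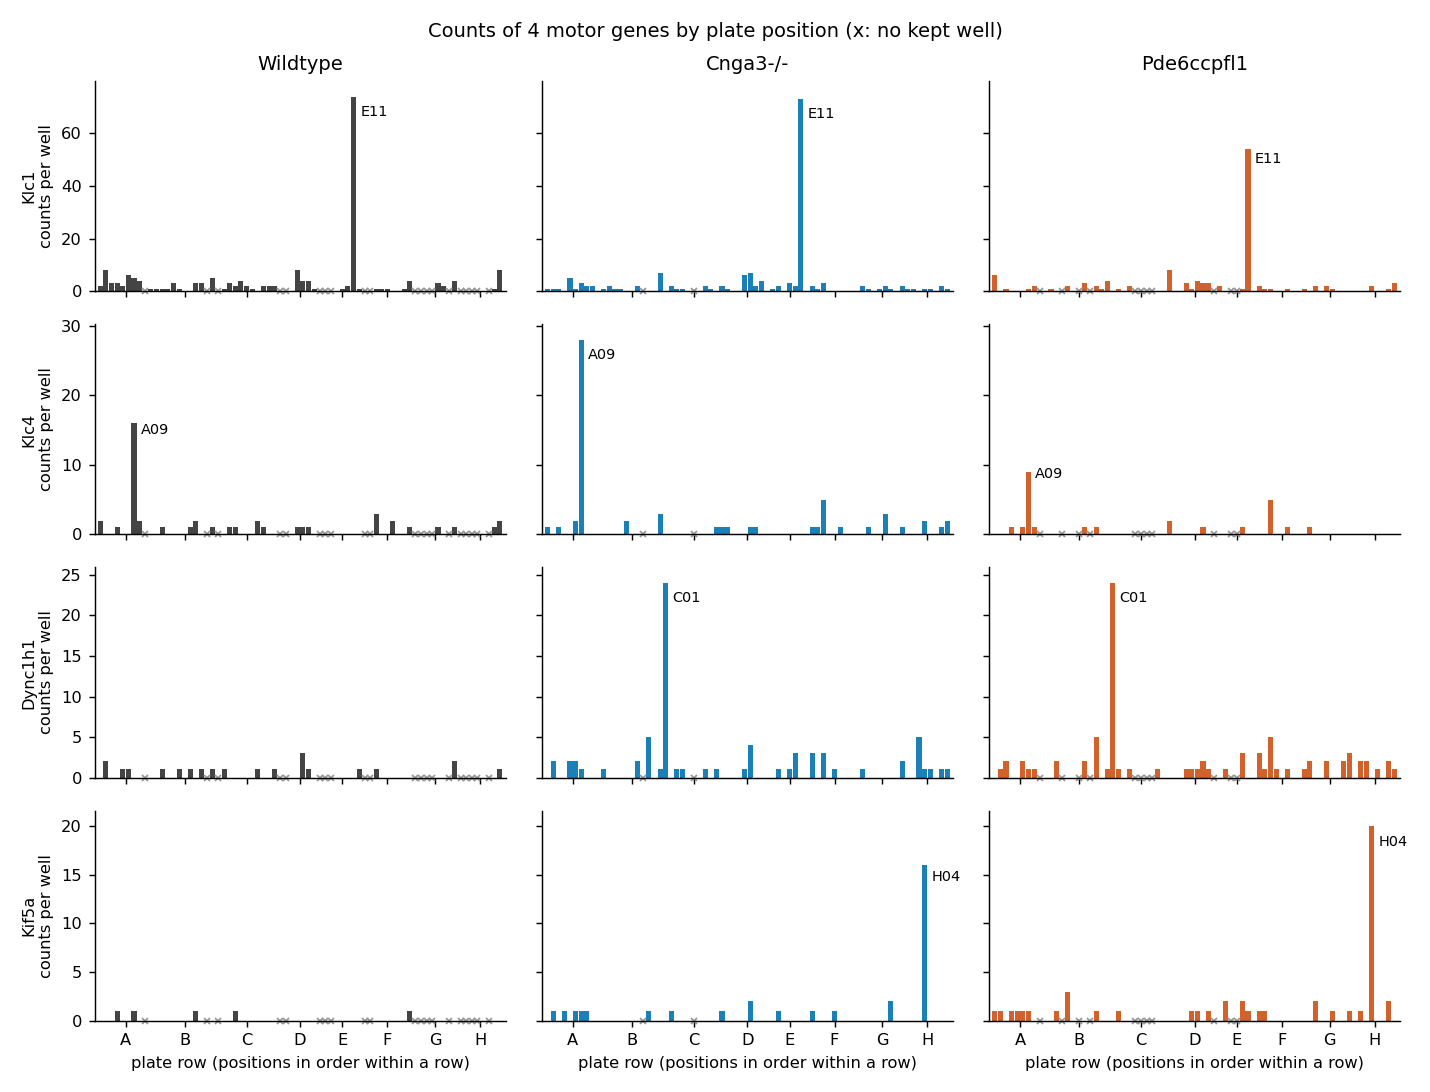
Counts per well (y axis) of Klc1, Klc4, Dync1h1 and Kif5a in the 3 plates, with wells in order of plate position (x axis, letters are plate rows) and crosses where no well was kept. Klc1 peaks at E11 and Klc4 at A09 in every plate, while Dync1h1 at C01 and Kif5a at H04 peak in the mutant plates. The wildtype well C01 was not kept, and the counts held no wildtype well H04.

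Motor genes were a small and sparse share of the RNA. Member counts numbered 783 for wildtype (0.287% of the library), 914 for Cnga3-/- (0.272%) and 775 for Pde6ccpfl1 (0.263%). The median well held 12, 9 and 9 member counts, from 8, 7 and 6 different members, and 1, 4 and 2 wells held none. The well with the most was E11 in each plate, with 82, 77 and 59 member counts. By total count 17 members had 50 or more over the 3 libraries, 23 had 10 to 49, 24 had 1 to 9 and 4 had none: the mitotic kinesin gene Kif4, the dynein-2 light intermediate chain gene Dync2li1, and Dynlt1b and Dynlt1f. The share of members with 50 or more counts was 25%, against 10.6% of 21721 protein-coding genes. At 0 counts were 5.88% of members against 17.3% of those genes, and the median was 14.5 counts against 7. Low counts were thus not particular to the motors.

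Levels of different genes are compared here only as CPM per kilobase of exon. Whether counts scale with exon length in these libraries was not tested. If they do not, this scale sets long genes too low and short genes too high, and ranks between genes shift with it. All members together were at 6.08, 5.78 and 5.57 on this scale in wildtype, Cnga3-/- and Pde6ccpfl1. Olfactory receptor genes, 1091 genes known from the nasal epithelium, were at 4.48, 3.60 and 4.15, and the 20 axonemal dynein genes of motile cilia at 5.66, 5.50 and 5.81, so most motor classes lay near the level of genes not expected in these cells. A counting interval wholly above the olfactory receptor level was found for 11 members in wildtype and 16 in each mutant, and an interval wholly below it for 16, 14 and 15. The 7 of 68 members above it in all 3 libraries were Klc1, Klc4, Kif3a, Kif24, Kif13a, Kif18b and Kif2c. The share of all protein-coding genes that meet the same rules is not given here. These numbers therefore do not set the motors apart from other genes.

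**Figure D2:**
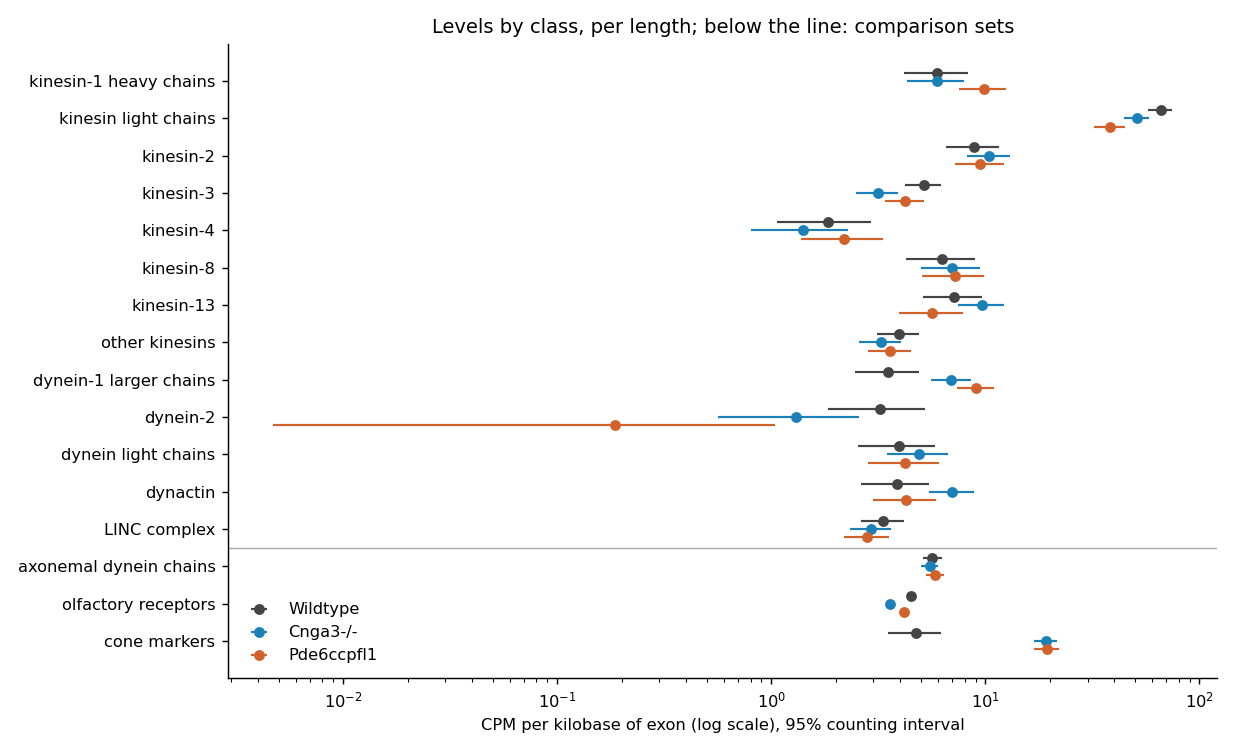
Level of each motor class (CPM per kilobase of exon, log scale) in the 3 libraries with the exact 95% counting interval, and below the line the axonemal dyneins, olfactory receptors and cone markers. Kinesin light chains lie at 65.9, 50.9 and 38.2, far to the right of the other motor classes, most of which overlap the range of the olfactory receptors and axonemal dyneins.

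Kinesin light chains, which link the kinesin-1 motor to its cargo, were the most abundant class. Together they were at 65.9 CPM per kilobase in wildtype (57.8 to 74.8), 50.9 in Cnga3-/- (44.5 to 58.0) and 38.2 in Pde6ccpfl1 (32.3 to 44.8). The ratio to wildtype was 0.773 (0.641 to 0.931) in Cnga3-/- and 0.580 (0.469 to 0.714) in Pde6ccpfl1, and over the shared positions 0.9 (0.739 to 1.09) and 0.643 (0.515 to 0.8). The direction was the same under each of the 3 other scalings of the libraries. Over all kept wells, Müller glia markers had the same order of libraries as the light chains, and their part in the light chain difference was not tested.

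Klc1 (chromosome 12, 111758849 to 111807844, plus strand, GRCm38) carried most of this. Its counts were 192, 162 and 122 for wildtype, Cnga3-/- and Pde6ccpfl1, found in 44, 45 and 32 wells, and ranked 158 of 21721 protein-coding genes per kilobase. Its highest well was E11 in each plate, with 74, 73 and 54 counts, while no other well passed 8. Position E11 thus held 42.2% of all Klc1 counts, and the remaining wells held 118, 89 and 68. Klc1 was lower in both mutants than in the wildtype library that both comparisons share, by a log2 ratio of -0.54 (-0.85 to -0.23) for the Cnga3-/- plate and of -0.77 (-1.11 to -0.43) for the Pde6ccpfl1 plate. Without E11 the log2 ratios were -0.71 (-1.12 to -0.30) and -0.91 (-1.37 to -0.47), and over shared positions -0.36 and -0.63. In wells with a cone marker count, E11 among them, they were -1.0 and -1.25, and in those wells without E11 they were -0.65 (-1.18 to -0.12) and -0.82 (-1.37 to -0.26). The median log2 ratio to wildtype over all compared genes was -0.32 for Cnga3-/- and -0.16 for Pde6ccpfl1. Over all kept wells, the Cnga3-/- interval of Klc1 holds the first, and its Pde6ccpfl1 interval lies below the second.

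Klc4 (chromosome 17, 46630624 to 46646022, minus strand), a second light chain gene, had 45, 60 and 25 counts in 22, 21 and 12 wells. Its highest well was A09 in every plate, with 16, 28 and 9 counts. Pde6ccpfl1 was lower than Cnga3-/- by a log2 ratio of -1.08 (-1.81 to -0.38), which was -0.83 (-1.79 to 0.08) without A09 and -1.09 (-1.85 to -0.37) over shared positions. Against wildtype the log2 ratios were 0.12 (-0.46 to 0.71) for the Cnga3-/- library and -0.96 (-1.73 to -0.22) for the Pde6ccpfl1 library, the second of which was -0.69 (-1.48 to 0.07) over shared positions, an interval that holds 0. The other light chains, Klc2 and Klc3, held 2 and 5 counts over the 3 libraries.

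The promoters of Klc1 and Dync1h1, the members with the most counts, are shown because these genes lay on opposite sides of wildtype in both mutants. Each is the 250 bases before the start site, 5′ to 3′ on the plus strand of chromosome 12, from RefSeq on GRCm38.p6 (Klc1 111758618 to 111758867, Dync1h1 110601145 to 110601394), and capitals mark the GC box GGGCGG or its reverse complement CCGCCC, a motif of Sp-family factors.
Klc1: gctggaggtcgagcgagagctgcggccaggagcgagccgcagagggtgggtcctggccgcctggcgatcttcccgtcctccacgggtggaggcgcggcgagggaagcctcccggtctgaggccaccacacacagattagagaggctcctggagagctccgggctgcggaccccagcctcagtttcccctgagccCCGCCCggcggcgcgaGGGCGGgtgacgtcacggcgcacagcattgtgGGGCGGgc
Dync1h1: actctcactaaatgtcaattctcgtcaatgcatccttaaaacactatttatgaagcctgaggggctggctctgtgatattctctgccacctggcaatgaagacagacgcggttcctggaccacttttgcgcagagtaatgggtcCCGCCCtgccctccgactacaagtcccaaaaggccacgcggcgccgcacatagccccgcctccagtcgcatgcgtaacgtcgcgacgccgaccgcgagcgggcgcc
The Klc1 window held 3 such matches and the Dync1h1 window 1. The gene start given above for Klc1 (111758849) is from GENCODE and not RefSeq. By that start, the end of the Klc1 window and the last of its matches lie inside the gene. Over all 32851 promoter windows of this length 32.7% held a GC box on either strand, against 38 of the 63 windows found for 53 members (60.3%). The letters TAATCC or GGATTA, the core recognised by the photoreceptor factor CRX, were in neither window; 6.25% of all windows and 6 of the 63 member windows held them, those of Kif12, Kif5c, Kif9, Sun1 and Syne3.

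Kinesin-1 heavy chains are the motor subunits that the light chains join. Kif5a (chromosome 10, 127225696 to 127263348, minus strand), a heavy chain best known from neurons, had 5 counts in 5 wildtype wells, 31 in 14 Cnga3-/- wells and 49 in 24 Pde6ccpfl1 wells. Per kilobase that was 2.62, 13.2 and 23.8 CPM. The intervals of both mutants lay above the olfactory receptor level, while the wildtype interval was neither wholly above nor wholly below it. Position H04 held 16 of the Cnga3-/- and 20 of the Pde6ccpfl1 counts, and the table had no wildtype well H04. Pde6ccpfl1 was higher than wildtype by a log2 ratio of 3.18 (1.86 to 4.87), by 2.46 (1.07 to 4.18) without H04 and by 2.54 (0.99 to 4.54) over shared positions, where the counts were 22 and 4. Kif5a entered this comparison through its Pde6ccpfl1 counts. It missed the minimum of 50 counts in the Cnga3-/- comparison, where the log2 ratio was 2.34 (0.96 to 4.06) and, without H04, 1.31 (-0.22 to 3.13). Pde6ccpfl1 over Cnga3-/- was 0.85 (0.17 to 1.54), and 0.84 (-0.22 to 1.95) over shared positions, where the interval holds 0.

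Kif5c, the other neuronal heavy chain, ran the other way with 28, 12 and 12 counts. D08 was its highest well in each plate, with 10, 5 and 5, and the log2 ratio to wildtype was -1.52 (-2.63 to -0.50) for Cnga3-/- cells and -1.33 (-2.44 to -0.31) for Pde6ccpfl1 cells. Over shared positions these were -1.18 (-2.35 to -0.10) and -1.10 (-2.27 to -0.03). The widely expressed heavy chain Kif5b had 3, 1 and 3 counts. The class as a whole was at 5.96, 5.93 and 9.81 CPM per kilobase, a sum in which Kif5a and Kif5c differed in opposite directions between wildtype and the mutants.

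Kinesin-2 motors drive transport along the cilium, from which the photoreceptor outer segment is built. Kif3a (chromosome 11, 53567379 to 53601967, plus strand) was spread evenly, with 32, 51 and 43 counts in 21, 31 and 26 wells and at most 3, 5 and 4 in any well. At 32.7, 42.4 and 40.7 CPM per kilobase it was the third most abundant member after Klc1 and Klc4 in wildtype. Cnga3-/- over wildtype gave a log2 ratio of 0.38 (-0.29 to 1.06), Pde6ccpfl1 over wildtype 0.31 (-0.38 to 1.02), and the mutants -0.06 (-0.68 to 0.55), so no difference was detectable at this depth. Its partner Kif3b had 12, 14 and 13 counts, the alternative partner Kif3c 5, 6 and 3, and Kif17, a further ciliary kinesin, 2, 3 and 0. Kif3c shares 35.3% of its exon bases with the antisense gene 1110002L01Rik, and no strand setting for the counting was given, so its counts are uncertain.

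Kinesin-3 motors carry vesicles and endosomes. They summed to 105, 79 and 93 counts. Cnga3-/- over wildtype was 0.612 (0.452 to 0.828), or 0.599 (0.426 to 0.835) over shared positions, and Pde6ccpfl1 over wildtype was 0.820 (0.614 to 1.09). The synaptic vesicle precursor motor Kif1a had 25, 15 and 17 counts, its relative Kif1b 25, 12 and 16, and Kif13a 25, 17 and 18. Wildtype was highest for each of these 3. The endosomal motor Kif16b went the other way, with 11, 16 and 24 counts, and Pde6ccpfl1 over wildtype was 1.01 (-0.07 to 2.19) on the log2 scale. Kif13b had 8, 6 and 7 counts and Kif1c 5, 5 and 4.

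Kinesins of cell division and microtubule ends were found in these sorted cells at low counts. The 10 mitotic kinesins together held 79, 84 and 76 counts, or 4.23, 3.67 and 3.77 CPM per kilobase, and cell cycle markers were at 2.55, 2.17 and 2.68. Kif18b (chromosome 11, 102905529 to 102925124, minus strand), a kinesin-8 that shortens microtubules in mitosis, held 23, 26 and 28 of them. A single plate position carried much of this, since F05 held 11, 15 and 11 counts, and every other well held at most 2. Its log2 ratio was 0.17 (-0.68 to 1.03) for Pde6ccpfl1 over wildtype and 0.29 (-0.53 to 1.12) between the mutants. The microtubule depolymerase Kif2c had 19, 11 and 11 counts, the spindle motor Kif15 12, 12 and 10, Kif20b 12, 7 and 10, Kif14 6, 8 and 7, Kif22 4, 5 and 6 and Kif18a 2, 10 and 3. Kif11, the motor that separates spindle poles, had 1, 1 and 0.

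Kif24 (chromosome 4, 41390745 to 41464887, minus strand), a kinesin-13 that acts at centrioles and restrains cilium formation, stood out in Cnga3-/-. It had 18 counts in 14 wildtype wells, 54 in 37 Cnga3-/- wells and 21 in 16 Pde6ccpfl1 wells, with at most 3, 5 and 2 in a well, so no single well carried the difference. Cnga3-/- was higher than wildtype by a log2 ratio of 1.29 (0.50 to 2.15), or 1.52 (0.57 to 2.55) over shared positions, and Pde6ccpfl1 was lower than Cnga3-/- by -1.18 (-1.98 to -0.43), or -0.96 (-1.86 to -0.11) over shared positions. Over 12 alternatives the lowest log2 ratio of Cnga3-/- to wildtype was 0.95, just under 2-fold. Pde6ccpfl1 over wildtype was 0.11 (-0.87 to 1.10).

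Kif26b (chromosome 1, 178529125 to 178939200, plus strand), a kinesin-like protein that has lost its motor activity and acts in cell adhesion and signalling, had 33, 34 and 22 counts in 21, 18 and 13 wells. Cnga3-/- over wildtype was -0.25 (-0.99 to 0.48) and Pde6ccpfl1 over wildtype -0.70 (-1.54 to 0.13) on the log2 scale, and both intervals held 0. It shares 6.19% of its exon bases with the antisense gene Gm16564. Its relative Kif26a had 10, 9 and 16 counts. Among the remaining kinesins, the neuronal kinesin-4 genes Kif21a and Kif21b had 4, 3 and 6 and 9, 7 and 13 counts, and Kif19a, which sets cilium length, 5, 5 and 6.

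**Figure D3:**
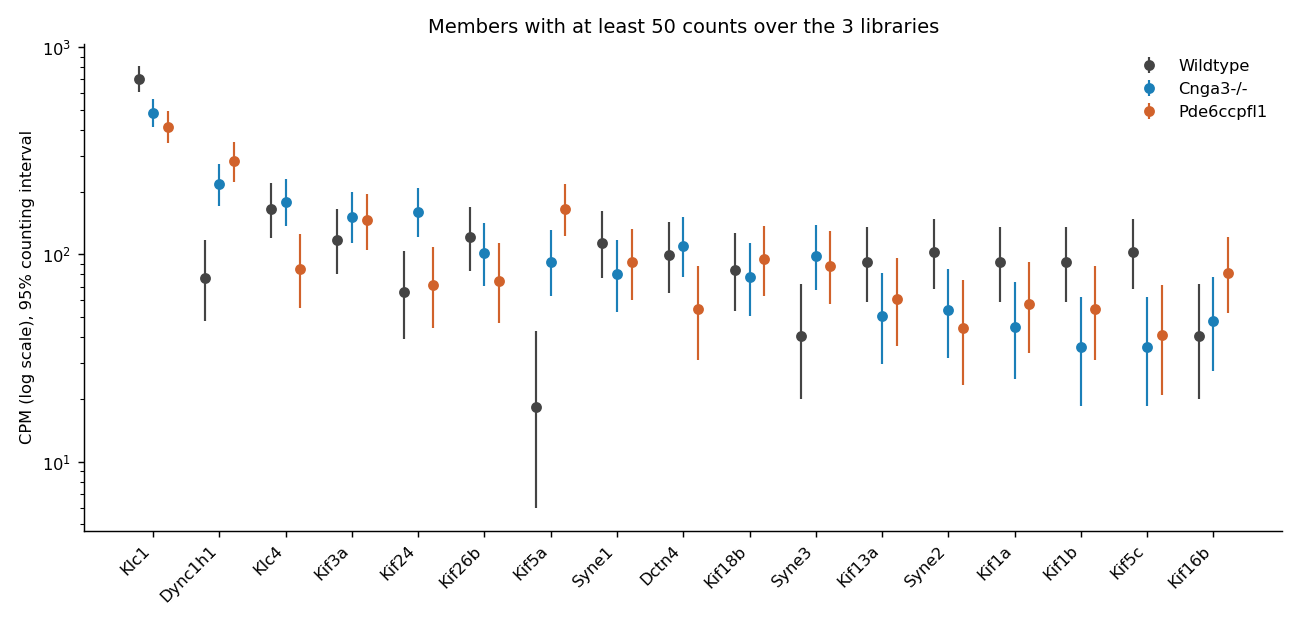
Level (CPM, log scale) of the 17 members with at least 50 counts over the 3 libraries, each with its exact 95% counting interval; levels are to be compared between libraries and not between genes, since gene lengths differ. Wildtype is highest for Klc1 and lowest for Dync1h1 and Kif5a, and Cnga3-/- is highest for Kif24.

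Cytoplasmic dynein-1 is the main motor toward microtubule minus ends. Its heavy, intermediate and light intermediate chains were at 3.52 CPM per kilobase in wildtype (2.47 to 4.88), 6.93 in Cnga3-/- (5.55 to 8.55) and 9.06 in Pde6ccpfl1 (7.37 to 11). The ratio to wildtype was 1.97 (1.32 to 2.99) and 2.57 (1.74 to 3.88), and over shared positions 1.42 (0.895 to 2.27) and 1.84 (1.19 to 2.89). The shared-position interval of Cnga3-/- holds 1. Both ratios were above 1 under each of the 3 other scalings. No chain other than Dync1h1 passed 10 counts in any library, so the ratios describe mainly that gene and not the class.

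The heavy chain gene Dync1h1 (chromosome 12, 110601452 to 110666945, plus strand), which encodes the motor itself, held most of that sum. It had 21 counts in 17 wildtype wells, 73 in 28 Cnga3-/- wells and 83 in 35 Pde6ccpfl1 wells, or 4.91, 13.9 and 18.0 CPM per kilobase. C01 held 24 counts in each mutant plate and no other well passed 5. The wildtype C01 well, left out with 385 genes and 686 counts, held 6. Cnga3-/- was higher than wildtype by a log2 ratio of 1.5 (0.78 to 2.28), which fell to 0.94 (0.17 to 1.75) without C01 and 0.85 (0.03 to 1.72) over shared positions. Pde6ccpfl1 was higher by 1.87 (1.17 to 2.64), by 1.39 (0.65 to 2.18) without C01 and by 1.22 (0.43 to 2.06) over shared positions. The mutants differed from each other by 0.37 (-0.10 to 0.84).

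The light intermediate chains, through which dynein meets its cargo adaptors, had 3, 6 and 6 counts for Dync1li1 and 10, 4 and 6 for Dync1li2. The intermediate chains Dync1i1 and Dync1i2 held 2 and 9 counts over the 3 libraries. The dynein-2 heavy chain Dync2h1 (chromosome 9, 6928503 to 7184446, minus strand), the return motor of ciliary transport, had 16, 8 and 1 counts. With 1 count in Pde6ccpfl1 its log2 ratio to wildtype was -4.11 with a wide interval (-9.50 to -1.43), and -3.62 (-9.03 to -0.88) over shared positions. In Cnga3-/- it was -1.30 (-2.73 to 0.01).

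Dynein light chains are small subunits shared with other complexes. Dynll1 had 8, 17 and 14 counts, Dynlrb1 3, 7 and 5, Dynll2 3, 2 and 4 and Dynlt3 3, 3 and 0. The 4 Dynlt1 genes of chromosome 17 are near-identical copies in their coding part: over 342 coding bases Dynlt1a, Dynlt1c and Dynlt1f were identical, and Dynlt1b differed at 1 position (99.7% identity). The first 69 coding bases, read from the GRCm38 genome 5′ to 3′ along each gene, are shown with the differing position in capitals.
Dynlt1a: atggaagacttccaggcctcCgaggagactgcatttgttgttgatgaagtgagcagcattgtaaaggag
Dynlt1b: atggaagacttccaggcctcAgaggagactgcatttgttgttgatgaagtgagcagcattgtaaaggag
Dynlt1c: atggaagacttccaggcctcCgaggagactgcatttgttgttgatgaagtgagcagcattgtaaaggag
Dynlt1f: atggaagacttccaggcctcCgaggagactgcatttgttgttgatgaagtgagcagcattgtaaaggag
The genes lie at 6306340 to 6317500 (Dynlt1a, minus strand), 6430112 to 6436296 (Dynlt1b, plus), 6601671 to 6609774 (Dynlt1c, plus) and 6646602 to 6655900 (Dynlt1f, minus). Their exons outside the coding part were not compared. Dynlt1a had 5, 8 and 1 counts, Dynlt1c 3, 1 and 4, and Dynlt1b and Dynlt1f none. Where reads fall in the coding part the counting could divide or drop them between the copies, so these 4 values are uncertain singly, and Dynlt1a also shares 13.6% of its exon bases with Tmem181a on the other strand.

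Dynactin together was at 3.86 CPM per kilobase in wildtype, 6.99 in Cnga3-/- and 4.26 in Pde6ccpfl1, with a ratio of Cnga3-/- to wildtype of 1.81 (1.17 to 2.86), or 1.54 (0.952 to 2.53) over shared positions. Dctn4 (chromosome 18, 60526185 to 60558766, plus strand), a subunit of the complex's pointed end, had 27, 37 and 16 counts in 14, 18 and 12 wells. A07 was its highest well in each plate, with 9, 14 and 4. Pde6ccpfl1 was lower than Cnga3-/- by a log2 ratio of -1.02 (-1.97 to -0.14), by -0.77 (-1.91 to 0.30) without A07 and by -1.35 (-2.39 to -0.40) over shared positions, but was at 0.0008 when the CPM of single wells was averaged. Dctn3, a shoulder subunit, had 1, 21 and 11 counts, of which well F03 held 15 in Cnga3-/- and 8 in Pde6ccpfl1, and the table had no wildtype well F03. Dctn1, which encodes the subunit that holds the microtubule, had 1, 6 and 6 counts.

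The LINC genes were together at 3.33, 2.92 and 2.81 CPM per kilobase, and their sum over wildtype was 0.877 (0.636 to 1.21) in Cnga3-/- and 0.843 in Pde6ccpfl1. Syne1 (chromosome 10, 5020917 to 5551482, minus strand), which encodes the giant nesprin-1, had 31, 27 and 27 counts in 20, 18 and 20 wells, with log2 ratios to wildtype of -0.50 (-1.30 to 0.30) and -0.31 (-1.11 to 0.48). Its level per kilobase (2.80, 1.99 and 2.26 CPM) was below that of the olfactory receptors in each library. That level rests on a division by 40491 exon bases. Syne2, which encodes nesprin-2, had 28, 18 and 13 counts, a log2 ratio of -1.22 (-2.29 to -0.22) for Pde6ccpfl1 over wildtype that was -1.04 (-2.22 to 0.04) over shared positions, where the interval holds 0. Syne3 (chromosome 12, 104929933 to 105009809, minus strand), which encodes nesprin-3, had 11, 33 and 26 counts, with 16 and 13 of the mutant counts in well C01. At 7.26, 17.7 and 15.9 CPM per kilobase it was the one anchor gene whose interval lay above the olfactory receptor level in both mutants. The log2 ratios of Cnga3-/- and of Pde6ccpfl1 to wildtype were 1.29 (0.27 to 2.42) and 1.13 (0.06 to 2.29), but 0.34 (-0.84 to 1.58) and 0.14 (-1.14 to 1.44) without that position. Of the SUN genes, Sun1 had 2, 5 and 2 counts and Sun2 6, 1 and 3.

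Summed over the 68 members, the ratio was 0.95 (0.863 to 1.05) for Cnga3-/- over wildtype, 0.916 (0.829 to 1.01) for Pde6ccpfl1 over wildtype and 0.964 (0.875 to 1.06) between the mutants. The first turned to 1.05, 1.01 and 1.03 under the other scalings, of which median-of-ratios moved the median log2 ratio of all compared genes from -0.32 to -0.18. Single members were compared from 50 counts over both libraries upward, provided that 20% of the wells of one library held a count, so only 8, 8 and 11 of the 68 entered. The ratios to wildtype given above for Kif5c, Dync2h1, Syne2, Syne3 and Kif16b missed this minimum of counts. So did those of Kif24 in Pde6ccpfl1 and Kif5a in Cnga3-/-. None of these is part of the numbers that follow. At least 2-fold higher in Cnga3-/- than in wildtype were 2 of 8 members (Dync1h1 and Kif24) beside 11.2% of 1723 genes, and 0 of 8 were 2-fold lower beside 11.7%. In Pde6ccpfl1, 2 of 8 were higher than wildtype (Kif5a and Dync1h1) beside 10.2% of 1600 genes and 0 of 8 lower beside 15.2%. Between the mutants, 0 of 11 were higher in Pde6ccpfl1 beside 6.44% of 1693 genes and 3 of 11 lower (Kif24, Klc4 and Dctn4) beside 9.33%. Klc4 and Dctn4 passed the minimum of 20% of wells through Cnga3-/- alone, with 30.0% and 25.7% of its wells against 19.7% of the Pde6ccpfl1 wells, so the filter favoured a lower value in Pde6ccpfl1. Against wildtype, Kif5a passed it through Pde6ccpfl1 alone, with 39.3% of its wells against 9.62% of the wildtype wells. For Kif5a the filter thus favoured a higher value in Pde6ccpfl1. The median log2 ratio of the compared members was 0.14, -0.07 and -0.16, against -0.32, -0.16 and 0.07 over all compared genes. These counts describe size and were too few to set the motors apart from other genes.

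**Figure D4:**
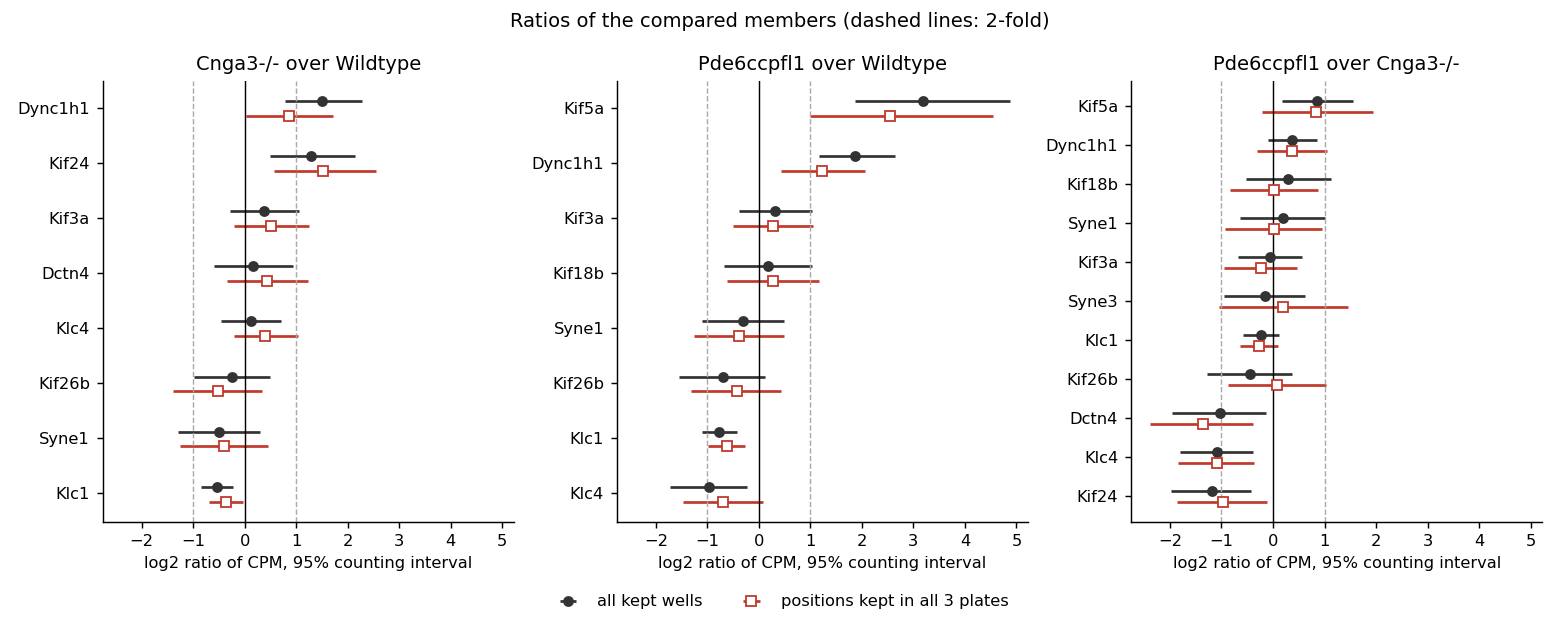
Log2 ratio of CPM for each compared member in the 3 comparisons, with the exact 95% counting interval, over all kept wells (filled) and over the positions kept in all 3 plates (open squares); dashed lines mark 2-fold. Kif5a and Dync1h1 lie furthest right in Pde6ccpfl1 over wildtype, at 3.18 and 1.87, and move left to 2.54 and 1.22 over shared positions.

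Wells with a cone marker count, Cnga3 and Pde6c among the markers, were 19 of 52 in wildtype, 59 of 70 in Cnga3-/- and 57 of 61 in Pde6ccpfl1. Members took 0.353%, 0.277% and 0.266% of the counts in these wells and 0.234%, 0.226% and 0.175% in the others, which were shallower (median 4387, 2947 and 2521 counts against 6034, 4326 and 3939). In wildtype, wells with a marker held 124 of 192 Klc1 counts and 22 of 32 Kif3a counts, but 7 of 21 Dync1h1 counts. Well E11 alone gave 74 of those Klc1 counts. Without E11 the wildtype wells with a marker held 50 of 118 Klc1 counts (42.4%), close to their 43.6% of all counts, and members took 0.297%, 0.256% and 0.248% of the counts in wells with a marker. Of 43 further genes of these pathways, dynein regulators, adaptors and partners of the nuclear lamina among them, 4, 2 and 3 were compared and only Map1b, a microtubule-binding protein, was 2-fold apart, lower in Pde6ccpfl1 than in Cnga3-/- (log2 ratio -1.62). The cargo adaptor Hook3 had 105, 122 and 89 counts and the lamin gene Lmnb1 50, 71 and 53.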

How the data were processed

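Single GFP-positive retinal cells of 3 mouse lines were sorted with a viability dye into 96-well plates and sequenced by steps taken from SMARTseq2 and MARS-seq, per the labels' protocols. The authors deposited raw counts per gene and well for 208 wells. The submitters' processing notes name featureCounts and the build GRCh38, a human build, while the symbols are mouse. The aligner, the strand setting and the handling of molecular identifiers are not given in the sources used here, so counts may not be independent molecules. Coordinates, exon lengths and Dynlt1 sequences come from GENCODE M21 (GRCm38), in which all 68 members were found, and promoters from RefSeq (GRCm38.p6).

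Wells were matched to libraries by column name and to plate positions by the position in that name. No doublet caller was run on these single-cell sorts. For each library the kept wells were added up and divided by their total (273080, 335499 and 295011). CPM carries an exact Poisson interval and a ratio an exact 95% binomial interval given the sum of both counts. A shared position is one kept in all 3 plates. Scripts used Python 3.11.15, numpy 2.4.6, pandas 2.3.3 and scipy 1.17.1, with edgeR 4.0.16 for TMM factors only, and were tested on simulated data.

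Every compared member is named, others with at least 10 counts over the 3 libraries are given by their counts, and the Dynlt1 copies in any case; members named below that count were added after their values were seen. Members and lists were chosen with earlier results of these data known. Alternatives were other well filters, scalings, count minimums and subsets of wells; 3 that rest on plate positions were added after seeing the data.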

Additional observations from a re-analysis of the deposited data

Results flagged for a closer look

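The 25 wells left out by the filters on genes and mitochondrial counts still held counts of motor genes. There were 27 member counts in the 9 wildtype wells (0.376% of their counts, 0.248 to 0.548), 9 in the 6 Cnga3-/- wells (0.190%, 0.0867 to 0.360) and 18 in the 10 Pde6ccpfl1 wells (0.218%, 0.129 to 0.345). Klc1 took 6, 0 and 1 of them.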

How the results depend on the processing

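No paired analysis was possible because there is 1 library per genotype. The summed log2 ratio of the members (-0.07, -0.13 and -0.05 for Cnga3-/- over wildtype, Pde6ccpfl1 over wildtype and Pde6ccpfl1 over Cnga3-/-) moved beyond its counting interval in these settings: for Cnga3-/- over wildtype to 0.067 with median-of-ratios factors and to -0.35 in wells with a cone marker count, for Pde6ccpfl1 over wildtype to 0.026 in wells thinned to 1400 counts and to -0.41 in wells with a cone marker count, and between the mutants to 0.092 with the mean CPM over wells. The number of members compared also changed with the setting and is given after each count. Members 2-fold higher in Cnga3-/- than in wildtype, 2 of 8, were 1 of 8 with no filter on wells. In thinned wells they were 0 of 1, with a minimum of 10 counts 6 of 35, with a minimum of 200 counts 0 of 1. Over the positions kept in all 3 plates they were 1 of 8. Those 2-fold lower, 0 of 8, became 1 of 6 in wells with a cone marker count. With the minimum of 10 they were 7 of 35. In Pde6ccpfl1 over wildtype, 2 of 8 higher became 0 of 1 in thinned wells and 5 of 32 with the minimum of 10. They were 0 of 1 with that of 200 and 1 of 6 over shared positions. The 0 of 8 lower became 1 of 8 with the mean CPM and 1 of 5 without the 5 deepest wells. They were 2 of 5 in wells with a cone marker count and 3 of 32 with the minimum of 10. Between the mutants, 0 of 11 higher became 1 of 6 without the 5 deepest wells and 2 of 34 with the minimum of 10. The 3 of 11 lower became 1 of 11 with the mean CPM and 0 of 2 in thinned wells. They were 1 of 6 without the 5 deepest wells, 0 of 1 with the minimum of 200 and 1 of 6 over shared positions. They were 2 of 7 with the stricter well filter and 2 of 10 in wells with a cone marker count. With the minimum of 10 they were 4 of 34. The shares of all genes called at these settings are not given here, so these numbers describe the members only. Stricter minimums and thinning leave fewer genes compared; the other causes were not tested. Of 326 values of single members, 306 stayed within their counting interval. The sign changed in 26, over 14 of 27 ratios, 6 of them for Klc4 in Cnga3-/- over wildtype and 4 for Kif18b in Pde6ccpfl1 over wildtype. Of the 11 ratios whose interval excluded 0, 1 changed sign, Dctn4 between the mutants (0.0008 with the mean CPM). Dync1h1 and Kif5a in Pde6ccpfl1 over wildtype stayed at least 2-fold apart in all 12 and 11 alternatives. Thinned wells gave no ratio for Kif5a. The alternatives reuse the same counts, and Kif5a passed the filter only through the library where it was high. Its steady ratio is therefore no separate evidence of a difference. Dync1h1 in Cnga3-/- over wildtype was under 2-fold without C01 and over shared positions, and Kif24 with no filter on wells and in thinned wells. With a median of 14.5 counts per member, most members were too shallow for a 2-fold difference to be told from counting error.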
